A study of Mus musculus with 4 samples.

Results

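Wnt ligands, their receptors and the intracellular genes of the pathway were followed in mouse embryonic stem (ES) cells that lack the zinc finger transcription factor Klf5. The 43 genes were chosen by symbol: 12 ligands, 9 Frizzled receptors, 2 co-receptors, 3 Dishevelled genes, 5 genes of the destruction complex, 4 TCF/LEF factors, 5 secreted inhibitors, and Nkd1, Porcn and Sp5. The arrays held 93 probe sets for 42 of them, Tcf7 being not analysed here, and 38 genes had at least 1 probe set above the filter on dim probe sets, of 13023 genes measured in all. Klf5 KO clones 1 and 2 and wild-type (WT) clones 1 and 2 were cultured with serum and with LIF, which supports self-renewal of such cells, and total RNA of each clone was hybridised to 1 Affymetrix array. The labels do not name the parental line, the deleted part of Klf5 or whether feeder cells were used, and nothing says that clones were cultured apart. The p-values therefore measure only the spread between these clones.

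Wnt proteins are secreted lipid-modified growth factors. Porcn attaches the lipid, Wls carries the ligand to the cell surface, and the ligand binds a Frizzled receptor together with Lrp5 or Lrp6. Dishevelled then blocks the complex of Axin, Apc and Gsk3 that marks beta-catenin for destruction, and beta-catenin enters the nucleus and joins TCF/LEF factors on target genes. In mouse ES cells the pathway supports self-renewal, in part because beta-catenin relieves repression by Tcf7l1. Some ligands, Wnt5a among them, mainly use routes that do not need beta-catenin.

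Few genes of the pathway passed the test between KO and WT clones, and a gene that did not pass may still differ. Of the 38 measured members, 3 rose (Wnt5a, Dkk2 and Dkk3), 1 fell (Fzd5) and 34 did not pass (limma, Benjamini-Hochberg adjusted p under 0.05 over all 27022 kept probe sets). Over all genes, 2.94% were called higher and 1.34% lower (4.28% in all), and over probe sets 2.44% (659) and 1.25% (337), 3.69% in all. With median centring in place of quantile normalization, 640 probe sets were higher and 1420 lower, and 3 members were higher and 3 lower. At an unadjusted p under 0.05, 4 members were higher and 10 lower, beside 10.9% and 10.6% of all genes. The members' median log2 difference, KO minus WT, was -0.05, beside -0.02 for all measured genes. Without regard to the test, both KO clones read below both WT clones for 14 members and above them for 5, and the groups overlapped for 19. Over all genes these shares were 29.7% below and 25.9% above. For 21 members the gap between clones of 1 genotype was wider than the difference between genotypes, as for 57.7% of all genes. The plot of differences by role shows 2 inhibitors and 1 ligand far to the right and the other members from -0.80 to 0.73. The difference was negative for 25 of the 38 members, beside 6879 of all 13023 genes.

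**Figure D1:**
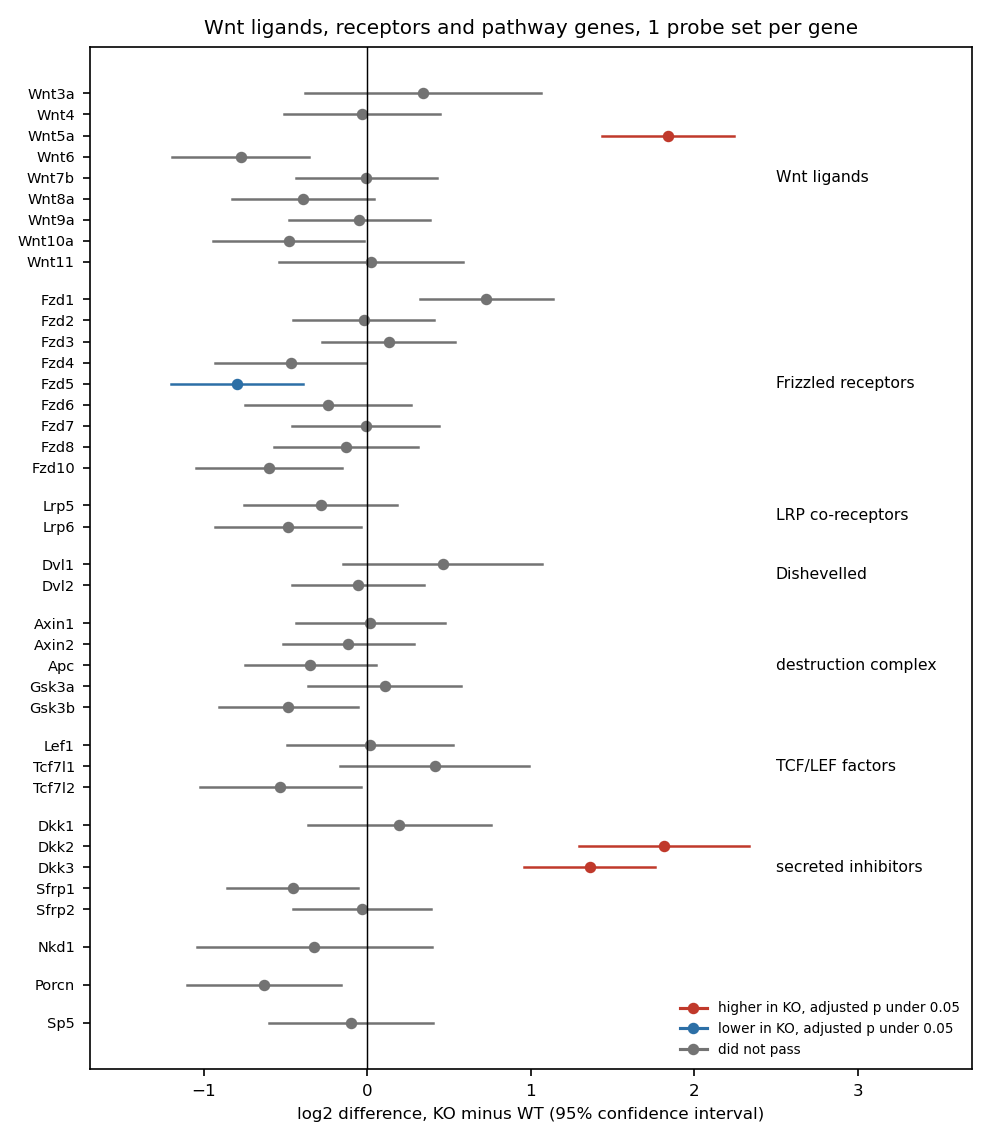
The log2 difference, KO minus WT, of the 38 measured members (1 probe set per gene, rows grouped by role), with bars for the 95% confidence interval from limma, n = 2 arrays per group. Wnt5a at 1.84, Dkk2 at 1.82 and Dkk3 at 1.36 lie apart from all others, and Fzd5 at -0.80 is the lower gene that passed.

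The arrays matched their genotype on the brightest Klf5 probe set, which had normalized intensities of 34.8 and 49.9 in KO clones and 2398 and 1782 in WT clones. The other kept Klf5 probe set read 82.6 and 61.0 in KO clones and 102 and 88.6 in WT clones, a difference of -0.35 that did not pass (adjusted p = 0.357, limma). After quantile normalization the arrays correlated at 0.986 within each genotype and at 0.972 to 0.979 between genotypes. None of 10 markers of ES cells passed (limma, 1 at an unadjusted p under 0.05), and their summed intensities were 35920 and 36620 in KO clones and 37850 and 38670 in WT clones. Their median log2 difference was -0.15, and 7 of 10 were negative, beside 6879 of all 13023 genes. Both KO clones read below both WT clones for 5 and above them for 1, beside 29.7% and 25.9% of all genes. A list of 19 markers of fibroblasts and feeder cells was chosen with earlier results of these data known. Lum, under the filter, read 7.58 and 8.04 in KO clones and 3.73 and 12.4 in WT clones, and Fbn1 was not analysed. Of the 17 measured markers, 16 rose in KO clones and 1 did not pass, with a median log2 difference of 2.13. Their summed intensities were 9319 and 8416 in KO clones and 1284 and 1035 in WT clones. Col1a2, a chain of type I collagen, read 876.9 and 900.2 in KO clones and 45.7 and 46.2 in WT clones. Of 6 measured primitive endoderm markers 0 passed (limma, 2 higher at an unadjusted p under 0.05), and 4 more were under the filter. Summed intensities of the 6 were 3147 and 3568 in KO clones and 2400 and 1357 in WT clones. Gata4, Gata6, Sox17, Dab2 and Pdgfra read 127 or less on each array, so Sparc made up most of these sums. The difference was positive for 5 of 6, beside 6144 of all 13023 genes, and the groups overlapped for 3. Sox17 had -0.26, and a dimmer Gata6 probe set had -0.43 beside 0.21 on the brighter one. In such bulk RNA more cells of a type and more RNA per cell cannot be told apart.

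Wnt5a, a ligand best known for acting without beta-catenin, rose. It had normalized intensities of 80.7 and 86.5 in KO clones 1 and 2 and 12.6 and 11.2 in WT clones 1 and 2. Both KO clones stood far above both WT clones, which read just under the filter intensity of 13.05. The probe set therefore passed the filter only through its KO readings. With no filter its adjusted p was 0.02 (limma). The log2 value rose by 1.84 ± 0.18 (SE, n = 2 arrays per group), a 3.57-fold difference, with adjusted p = 0.00103 (limma). Folds are on the scale of log2(intensity + 16), which understates changes of dim probe sets. The log2 difference of Wnt5a was 2.72 with a pseudocount of 1, 0.96 with a pseudocount of 64 and 0.95 as the mean of its probe sets. A further probe set of Wnt5a read 52.1 and 54.9 in KO clones and 22.8 and 13.0 in WT clones, and rose by 1.05 ± 0.20 (adjusted p = 0.0265), which did not pass without KO clone 1, KO clone 2 or WT clone 2 (adjusted p from 0.099 to 0.15). Its other 2 probe sets were under the filter, at 9.73 and 11.7 and at 7.69 and 10.4 in KO clones, against 6.39 and 4.36 and against 0.612 and 1.02 in WT clones. Both kept probe sets of Wnt5a therefore rose. The 2 under the filter were not tested. On them both KO clones also read above both WT clones, as for 25.9% of all genes.

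None of the other 8 measured ligands passed. Wnt6, a ligand found in epithelia, came closest, at 30.2 and 31.1 in KO clones against 70.3 and 57.9 in WT clones. Its groups did not overlap, with a log2 difference of -0.78 ± 0.18 (adjusted p = 0.0566, limma). Wnt6 passed as lower with the stricter filter, median centring, a variance trend, the replicate block or the mean of its probe sets (adjusted p from 0.026 to 0.048). Wnt8a and Wnt10a also read lower in both KO clones, at -0.39 and -0.48. Wnt7b, described because its probe set was the brightest of this role, had 138 and 137 in KO clones and 123 and 156 in WT clones, a difference of -0.01 with a 95% confidence interval of -0.44 to 0.43. For Wnt3a, the ligand used to activate beta-catenin in culture, WT clones read 26.3 and 3.72, so the KO values of 23.5 and 17.8 lay inside the WT range. Wnt4, Wnt9a and Wnt11 overlapped as well, between -0.05 and 0.02.

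Wnt2, Wnt3 and Wnt5b were under the filter on every probe set. Wnt2 read 12.6 and 14.3 in KO clones and 2.65 and 0.548 in WT clones. Wnt3 read 14.9 and 5.96 in KO clones and 8.52 and 1.46 in WT clones, and a Wnt5b probe set read 9.48 and 6.12 in KO clones and 4.01 and 7.87 in WT clones. The other Wnt5b probe set read lower in both KO clones, at 2.33 and 2.44 in KO clones and 10.1 and 4.88 in WT clones. These ligands were not tested, and no detection calls were used to say whether they were expressed.

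The secreted inhibitors Dkk2 and Dkk3 rose. Dkk proteins were named for Dkk1, which binds Lrp5 and Lrp6 and blocks beta-catenin signalling, while Dkk2 can block or support it depending on the cell, and Dkk3 is a divergent member of the family. Dkk2 read 73.8 and 44.2 in KO clones and 6.57 and 3.29 in WT clones. Both WT values were well under the filter intensity, and the KO clones differed from each other more than the WT clones did. Its log2 value rose by 1.82 ± 0.23 (3.52-fold, adjusted p = 0.00369, limma), with a range from 0.83 to 3.35 over the alternatives at pseudocounts of 64 and 1. Dkk2 did not pass with no filter (adjusted p = 0.062).

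For Dkk3 the clones of each genotype were close together. It read 85.9 and 85.6 in KO clones and 23.7 and 23.6 in WT clones. The rise was 1.36 ± 0.18 on the log2 scale (2.57-fold, adjusted p = 0.00429, limma). The other Dkk3 probe set read 58.4 and 70.9 in KO clones and 23.2 and 24.8 in WT clones, a rise of 1.01 ± 0.18 (adjusted p = 0.0215) that did not pass without any 1 array (0.075 to 0.092). The brighter probe set was no longer past the threshold without KO clone 1 (adjusted p = 0.051) or in the values as deposited (adjusted p = 0.07).

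The other inhibitors did not pass. Dkk1 read 13.0 and 32.1 in KO clones and 17.2 and 16.1 in WT clones, so that only KO clone 2 stood out. Sfrp1, a secreted protein that binds Wnt ligands, read 63.7 and 66.3 in KO clones and 96.5 and 94.0 in WT clones, a difference of -0.46 ± 0.18 (adjusted p = 0.192). All 5 probe sets of Sfrp1 had a negative difference, and none passed. Its relative Sfrp2 read 79.1 and 88.8 in KO clones and 93.9 and 79.0 in WT clones, with an interval of the difference from -0.45 to 0.39. Nkd1, an inhibitor of Dishevelled that beta-catenin induces, read 25.4 and 3.86 in KO clones and 24.5 and 15.8 in WT clones. The KO clones of Nkd1 lay further apart than the genotypes.

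**Figure D2:**
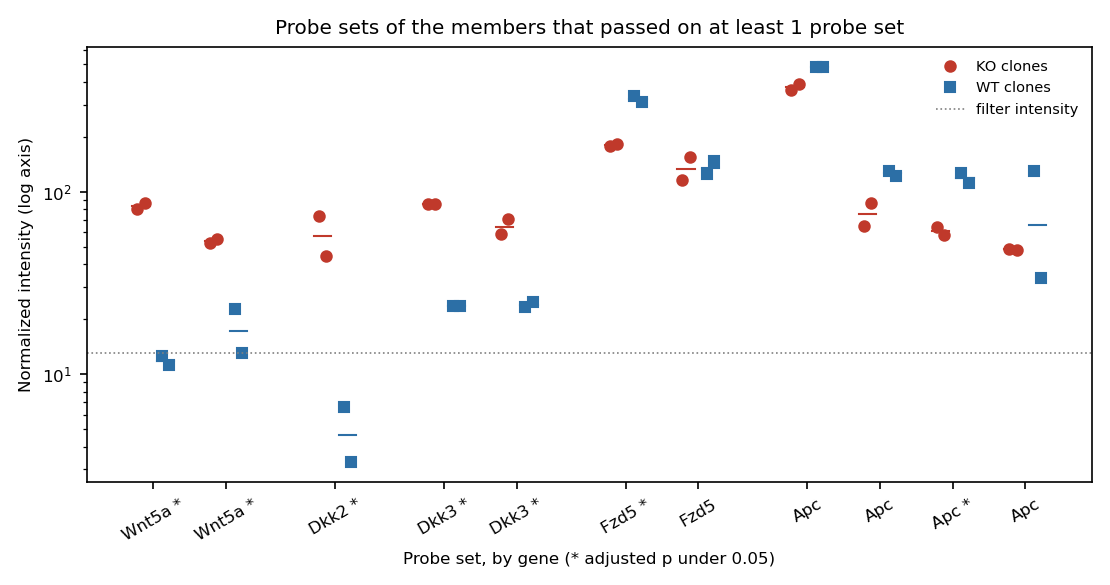
Normalized intensity (log axis) on each array for every kept probe set of the 5 members that passed on at least 1 probe set, with KO clones left of WT clones, short lines at the geometric mean of 2 arrays, a dotted line at the filter intensity of 13.05 and asterisks for adjusted p under 0.05. The WT points of Dkk2 and of the first Wnt5a probe set lie under the dotted line, and the KO and WT points overlap for the dimmer Fzd5 probe set and for 1 Apc probe set.

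Fzd5, a receptor for Wnt ligands that also binds Wnt5a, fell on 1 of its 2 probe sets. The brighter one read 177 and 182 in KO clones and 336 and 312 in WT clones. The groups were well separated, and the log2 value fell by 0.80 ± 0.18 (1.74-fold, adjusted p = 0.046, limma). The dimmer one read 116 and 154 in KO clones and 125 and 147 in WT clones, with a difference of -0.01 (adjusted p = 0.981) and overlapping groups. The call for Fzd5 was lost without any 1 of the 4 arrays, with differences from -0.85 to -0.73. It was also lost with a pseudocount of 1 (adjusted p = 0.14, limma), with no filter (0.12) and in the values as deposited (0.15). With the mean of the Fzd5 probe sets it was lost as well (-0.40, adjusted p = 0.22).

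None of the other 8 Frizzled receptors passed. Fzd1 read 81.7 and 76.4 in KO clones and 43.9 and 39.0 in WT clones, without overlap. Its log2 difference was 0.73 ± 0.18 (adjusted p = 0.0632), and it passed as higher with the stricter filter (adjusted p = 0.03) and with a variance trend (0.047). Fzd10 read 40.8 and 37.2 in KO clones and 78.4 and 57.7 in WT clones, a difference of -0.60 ± 0.20 (adjusted p = 0.135). Fzd7, with the brightest probe set of this role, had 285 and 292 in KO clones and 335 and 252 in WT clones, with an interval from -0.46 to 0.44. Fzd4 read lower in both KO clones, at -0.47. Fzd2, Fzd6 and Fzd8 overlapped, between -0.24 and -0.02. The probe sets of Fzd3 disagreed: the brightest had 0.13, while another read 27.6 and 23.1 in KO clones and 45.1 and 58.1 in WT clones, a difference of -0.70 (adjusted p = 0.0846). Over the 21 members with more than 1 kept probe set, all probe sets had 1 sign for 17, and the signs were mixed for 4 (Fzd2, Fzd3, Axin1 and Gsk3b).

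Promoters, stretches where transcription factors can bind, are shown for 3 genes that passed, Dkk2, Fzd5 and Wls, while those of Wnt5a, Dkk3, Notum, Amer1 and Celsr1 are not shown. RefSeq (GRCm38.p6) gives 300 bases around the start of transcription, 5′ to 3′ on the gene's strand. Those of Dkk2 (chr3:132085042-132085341, plus strand), which rose, Fzd5 (chr1:64737701-64738000, minus strand), which fell, and Wls (chr3:159839400-159839699, plus strand), which rose and is described further on, read as follows, with matches to CCNCNCCC in capitals.
Dkk2: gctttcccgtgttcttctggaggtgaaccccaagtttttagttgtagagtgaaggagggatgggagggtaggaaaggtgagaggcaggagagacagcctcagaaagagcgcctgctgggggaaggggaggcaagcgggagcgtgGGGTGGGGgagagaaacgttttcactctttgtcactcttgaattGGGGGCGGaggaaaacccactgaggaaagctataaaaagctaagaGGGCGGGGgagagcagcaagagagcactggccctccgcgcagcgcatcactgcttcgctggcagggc
Fzd5: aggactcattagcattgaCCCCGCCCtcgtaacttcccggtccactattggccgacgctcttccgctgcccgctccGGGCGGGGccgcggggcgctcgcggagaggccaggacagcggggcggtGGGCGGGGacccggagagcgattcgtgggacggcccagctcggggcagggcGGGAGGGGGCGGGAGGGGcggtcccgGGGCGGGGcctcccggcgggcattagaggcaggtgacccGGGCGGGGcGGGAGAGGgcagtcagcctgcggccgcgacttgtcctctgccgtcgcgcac
Wls: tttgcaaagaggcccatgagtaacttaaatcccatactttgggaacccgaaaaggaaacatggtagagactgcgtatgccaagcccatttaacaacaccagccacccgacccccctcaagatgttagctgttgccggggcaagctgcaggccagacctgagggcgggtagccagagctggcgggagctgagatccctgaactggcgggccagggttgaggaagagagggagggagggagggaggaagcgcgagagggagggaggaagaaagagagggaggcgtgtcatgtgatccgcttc
The letters CCNCNCCC, a KLF-type motif searched on both strands with overlapping matches counted, occurred 3 times for Dkk2, 9 times for Fzd5 and 0 times for Wls. Of 32851 promoters in the table, 49.5% held a match, and 33 of 36 promoters of 28 members did. The median GC content was 66.3% in the members' promoters and 52.7% in all. The TCF/LEF motif CTTTGAA, its form CTTTGAT, its form CTTTGTA and its form CTTTGTT, searched likewise, occurred in none of the printed windows, in 9 of the members' 36 and in 16.9% of all. A match is a run of letters, and binding was not measured.

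Neither co-receptor passed. The brighter Lrp6 probe set and that of Lrp5 read lower in both KO clones, as did 29.7% of all genes. Lrp6 read 137 and 161 in KO clones and 192 and 240 in WT clones, a difference of -0.49 ± 0.20 (adjusted p = 0.209, limma). The dimmer Lrp6 probe set overlapped, at 61.7 and 81.7 in KO clones and 118 and 60.7 in WT clones, a difference of -0.22. Lrp5 was dim, at 14.1 and 11.8 in KO clones and 14.2 and 25.1 in WT clones. For Dvl1, which passes the signal from Frizzled inward, values were 457 and 330 in KO clones and 213 and 361 in WT clones, and the groups overlapped. Dvl2 differed by -0.06 (interval -0.46 to 0.35), and Dvl3 was under the filter, at 7.25 and 1.43 in KO clones and 1.08 and 1.61 in WT clones. Porcn, the acyltransferase of the ligands, read 203 and 160 in KO clones and 255 and 326 in WT clones, a difference of -0.63 ± 0.21 (adjusted p = 0.134) that passed with median centring (adjusted p = 0.021).

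The destruction complex held 1 gene with a probe set that fell. Apc, a scaffold that binds beta-catenin, read 363 and 389 in KO clones and 485 and 482 in WT clones on its brightest probe set, a difference of -0.35 ± 0.18 (adjusted p = 0.307, limma). A dimmer one read 64.2 and 58.0 in KO clones and 126 and 112 in WT clones, and fell by 0.81 ± 0.18 (adjusted p = 0.0468). That call was lost without any 1 array (highest adjusted p = 0.19). The remaining Apc probe sets had -0.64 and -0.40 and did not pass, the last with WT clones at 129 and 33.5. Gsk3b, the kinase that marks beta-catenin, had -0.48 (adjusted p = 0.193) on its brightest probe set. Its 5 dimmer probe sets lay between -0.17 and 0.18. Gsk3a and the brighter Axin1 probe set overlapped between genotypes, at 0.11 and 0.02. The dimmer Axin1 probe set read 74.3 and 69.0 in KO clones and 99.0 and 118 in WT clones, a difference of -0.50 (adjusted p = 0.175, limma).

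Readouts of beta-catenin activity among the members did not pass. Axin2, a negative regulator that beta-catenin switches on in most tissues, read 91.2 and 90.9 in KO clones and 98.2 and 102 in WT clones. The difference was -0.12, with an interval from -0.52 to 0.28. Sp5, a zinc finger factor also induced by the pathway, read 19.0 and 35.6 in KO clones and 30.4 and 28.8 in WT clones. Lef1, a TCF/LEF factor, had 0.02 (interval -0.49 to 0.53).

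Tcf7l1, the repressor that dominates among TCF/LEF factors of mouse ES cells, varied between WT clones more than between genotypes. It read 681 and 763 in KO clones and 410 and 705 in WT clones, a difference of 0.41 ± 0.25 (adjusted p = 0.399, limma). The low value belonged to WT clone 1. Without that clone the difference was 0.03, and without WT clone 2 it was 0.78. Tcf7l2 read 25.9 and 42.5 in KO clones and 50.4 and 61.1 in WT clones, a difference of -0.53 ± 0.22 (adjusted p = 0.212).

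Genes that Tcf7l1 is known to repress in ES cells all read lower in KO clones, and none passed. For Esrrb, an orphan nuclear receptor, intensities were 549 and 738 in KO clones and 1125 and 924 in WT clones, a difference of -0.67 (adjusted p = 0.127), and a dimmer probe set had -0.93 (adjusted p = 0.0503). Tfcp2l1, a factor of the naive state, had -0.82 (adjusted p = 0.0709), Nr5a2 -0.42, Klf2 -0.33 and Nanog -0.18. The 5 genes did not overlap between genotypes, and 2 had an unadjusted p under 0.05 (limma), shares to be read beside the 29.7% and 10.6% of all genes that were lower by these rules.

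Of 9 measured direct targets of beta-catenin with TCF, 1 fell and 8 did not pass, beside 1.34% of all genes that fell. The gene that fell was Notum, an extracellular enzyme that removes the lipid from Wnt ligands and so inactivates them. Notum read 109 and 94.1 in KO clones and 243 and 194 in WT clones, and the log2 value fell by 0.99 ± 0.20 (1.99-fold, adjusted p = 0.0281, limma). Without any 1 array Notum did not pass (adjusted p from 0.051 to 0.12). Ascl2, a helix-loop-helix factor of intestinal stem cells and trophoblast, had -1.18 (adjusted p = 0.133) on its brightest probe set, with KO clones at 16.2 and 69.8 and WT clones at 93.7 and 113. A dimmer probe set of Ascl2 fell by 1.21 ± 0.27 (adjusted p = 0.0459), and the third had -0.64 (adjusted p = 0.0965). Ascl2 passed as lower with median centring and with the replicate block, as Notum did. It also passed in the values as deposited, where Notum did not (adjusted p = 0.068, limma). Ccnd1 and Myc, growth genes that many signals control, had -0.14 and -0.15.

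Of 46 other measured genes of the pathway, a list that also holds Notum, 1 rose, 3 fell and 42 did not pass, with a median of -0.11. That is 2.17% higher and 6.52% lower, beside 2.94% and 1.34% of all genes. Wls, which carries Wnt ligands out of the cell, read 286 and 185 in KO clones and 93.4 and 70.6 in WT clones. It rose by 1.34 ± 0.24 (2.53-fold, adjusted p = 0.0193, limma). Of its 2 dimmer kept probe sets 1 passed, at 0.92 (adjusted p = 0.0366), and the other had 0.80 (adjusted p = 0.0847). Without KO clone 1 or WT clone 2, Wls did not pass (adjusted p = 0.14 and 0.082).

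The genes that fell besides Notum were Amer1, a binding partner of Apc, and Celsr1, a cadherin of planar cell polarity. Amer1 read 48.6 and 36.7 in KO clones and 87.3 and 93.8 in WT clones, and fell by 0.87 ± 0.19 (adjusted p = 0.043). Celsr1 read 33.0 and 38.0 in KO clones and 92.8 and 70.6 in WT clones, and fell by 0.92 ± 0.20 (adjusted p = 0.0383). Both calls were lost without any 1 array (highest adjusted p = 0.16 for Amer1 and 0.2 for Celsr1). Dact1, an intracellular modulator of Dishevelled, had -0.82 and lay just outside the threshold (adjusted p = 0.0505). Ctnnb1, beta-catenin itself, read 5479 and 6134 in KO clones and 6777 and 6327 in WT clones, a difference of -0.18 (adjusted p = 0.63). Its dimmer probe sets had -0.44 and -0.70 (adjusted p = 0.235 and 0.0711). Rspo3, a secreted protein that strengthens Wnt signals, read 25.4 and 28.0 in KO clones and 12.8 and 4.26 in WT clones, a difference of 0.82 (adjusted p = 0.0741).

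The rises of Wnt5a, Dkk2, Dkk3 and Wls were found in the same KO arrays in which 16 of 17 fibroblast and feeder cell markers rose, and their part in these rises was not tested. The summed intensity of those markers was 8416 to 9319 in KO clones and 1035 to 1284 in WT clones. The lowest of the 17 was Dcn in WT clones, at 2.14 and 2.9, well under the filter intensity of 13.05. Prrx1 was also under it in WT clones, at 7.14 and 3.49. Such readings do not tell whether WT clones express a marker. In the plot by gene list the median of the fibroblast and feeder cell markers lies above the other medians. Their single genes run from 0.36 for Twist1 upward, and the Wnt genes lie on both sides of 0.

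**Figure D3:**
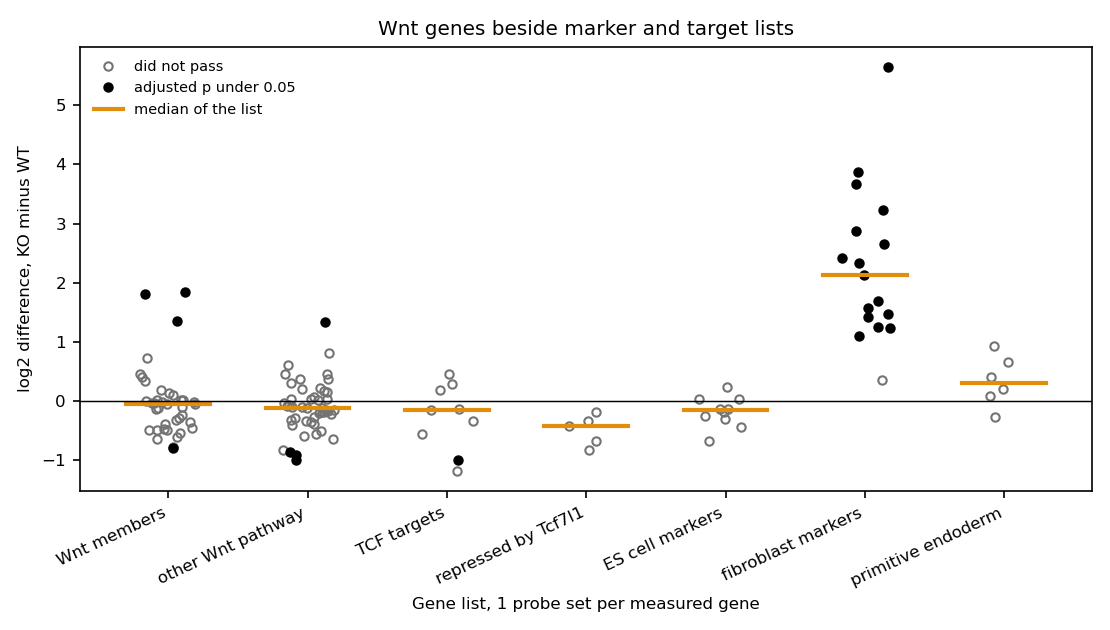
The log2 difference, KO minus WT, of each measured gene (points, 1 probe set per gene) in the Wnt members and 6 other lists, with filled points for adjusted p under 0.05 and bars at each list's median. Medians are -0.05 for the members, -0.11 for other Wnt pathway genes and 2.13 for fibroblast markers.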

How the data were processed

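Total RNA of 4 ES cell clones (2 Klf5 KO, 2 WT) was labelled with biotin and hybridised to 1 Affymetrix array each, per the labels' protocols, and groups follow the titles. The table deposited by the authors holds 1 linear intensity per probe set and array (45101 rows, from 0.0168 to 14472). How probes were summarised, background-corrected and scaled is not stated in the labels, and trimmed means differed up to 1.65 times between arrays. Arrays were therefore quantile normalized (limma 3.58.1, R 4.3.3), log2(intensity + 16) was taken, 64 control probe sets were left out, and probe sets below the 40th percentile of the mean log2 value were removed. A moderated linear model (lmFit, then eBayes, with 2 residual and 6.87 prior degrees of freedom) gave KO minus WT, and p-values over the whole kept table were adjusted by Benjamini-Hochberg. Precision is limited by how few arrays there are.

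Gene names come from the platform annotation, and the gene IDs of all 93 member probe sets matched the reference gene table without a change of symbol. The kept probe set with the highest mean stood for a gene, those ending in _x_at being a last resort. Readings of different probe sets do not rank transcripts. The members and lists were chosen with earlier results of these data known. Values per array are given for members that passed on a probe set, members at least 0.5 apart without overlap, and the member of each role with the highest reading (18 members). Values of other members and genes were added after they were seen. Clone numbers are shared by both genotypes. Across the kept probe sets, the clone 1 minus clone 2 deviations of KO and of WT correlated at 0.05. The main model therefore has no block.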

Additional observations from a re-analysis of the deposited data

How the results depend on the processing

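Over all probe sets, 659 were higher and 337 lower (66.2% higher). The total of 996 was 189 with a pseudocount of 1, 190 with no filter, 332 in the values as deposited, 2060 with a pseudocount of 64, 1955 with a variance trend, and from 203 to 653 without 1 array. Median centring gave 2060, of which 640 were higher and 1420 lower (31.1% higher). Centring moved the median of all genes to -0.19 and the deposited scale to -0.23, with the members' median at -0.23 and -0.27. Relative to all genes the members' median was -0.04 in both. Without 1 array the members' median ran from -0.14 to -0.036. The 4 member calls became 2 without the filter (12 at an unadjusted p under 0.05) and 2 in the deposited values, and 2 to 3 without 1 array. They became 6 with median centring (3 higher, 3 lower) and 6 with the variance trend (4 higher, 2 lower). The 3 rises of Wnt5a, Dkk2 and Dkk3 were positive in each alternative in which they were measured. The main Wnt5a probe set passed in all 11 of these that used it (highest adjusted p = 0.021), as did the mean of the Wnt5a probe sets (0.95, adjusted p = 0.023). Without KO clone 2 the other Wnt5a probe set stood for the gene, and Wnt5a was then not among the calls. The main probe set was removed by the stricter filter, as was that of Dkk2. Calls among the other pathway genes numbered 0 with a pseudocount of 1 (10 unadjusted), 0 without the filter (13 unadjusted), 0 in the deposited values (8 unadjusted), 7 with centring and 0 to 1 without 1 array. Calls among TCF targets numbered 0 with a pseudocount of 1 (2 unadjusted) or without the filter (3 unadjusted), 2 with centring, 2 with the replicate block, and 0 to 1 without 1 array. With the replicate block, members called were 5 (Wnt6 added, adjusted p = 0.048), and the total was 1390. The numbers of the clones do not pair them in the labels. Signs of uncalled members turned without 1 array: Fzd7 ran from -0.20 to 0.18, Sfrp2 from -0.14 to 0.067, Sp5 from -0.39 to 0.18, Nkd1 from -0.86 to 0.21 and Wnt7b from -0.16 to 0.15. The cause of these shifts was not tested. With 2 arrays per group, a probe set that did not pass may still differ.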
